A study of Mus musculus with 93 samples.

Results

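The nuclear genes of oxidative phosphorylation were followed across 5 stages of olfactory neuron formation in single mouse cells. A gene was included when the deposited annotation calls it protein coding and its symbol starts with Ndufa, Ndufb, Ndufc, Ndufs, Ndufv (not Ndufaf), Uqcr, Atp5, Cox4, Cox5, Cox6, Cox7 or Cox8, or is Sdha, Sdhb, Sdhc or Sdhd. This gave 86 of 32640 gene symbols, with 38 in complex I, 4 in complex II, 8 in complex III, 18 in complex IV and 18 in complex V. The cells were picked by hand from dissociated olfactory epithelium of C57BL/6 mice, and their polyadenylated RNA was primed with oligo(dT), amplified by PCR and sequenced. The first library of each of 85 cells was used: 11 Progenitors, 9 Precursors, 27 Early Immature Neurons, 13 Late Immature Neurons and 25 Mature Neurons. The labels name no mutation, treatment, age or animal, and how cells were assigned to stages is not stated. Each stage therefore counts as 1 sample, and differences between stages are described without a test, standard error or p-value. Values are FPKM, fragment counts scaled to transcript length and library size. Scaling to length allows only a rough comparison between genes, whose longest transcripts ran from 312 to 4715 bases. How evenly transcripts were covered after oligo(dT) priming was not tested, which limits ranks and shares between genes.

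Oxidative phosphorylation passes electrons from NADH and succinate through complexes I to IV of the inner mitochondrial membrane to oxygen. Complex V, the ATP synthase, uses the proton gradient built on the way to make ATP. Complex II is encoded by nuclear genes alone, while the other complexes join nuclear subunits to subunits of the mitochondrial genome, and several subunits of complexes IV and V have alternative genes. Olfactory sensory neurons form throughout life from dividing basal progenitors and, once mature, spend ATP on ion transport and odorant signalling.

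The lowest difference between the first and the last stage was that of Atp5g2, 1 of 3 genes for the c subunit of ATP synthase, and the sequences of these 3 genes are shown first. Atp5g1, Atp5g2 and Atp5g3 encode the same mature protein behind different import peptides, and copies of it form the membrane ring that turns as protons pass. Their 225 coding bases for the mature protein, read from GENCODE M21 transcripts on GRCm38, were 84.9% identical between Atp5g1 and Atp5g2, 80% between Atp5g1 and Atp5g3 and 78.7% between Atp5g2 and Atp5g3. Of the 57 positions at which the genes were not all alike, 52 were the last base of a codon. The first 90 bases are printed 5′ to 3′, with the 22 positions that are not alike in all 3 genes in capitals.
Atp5g1: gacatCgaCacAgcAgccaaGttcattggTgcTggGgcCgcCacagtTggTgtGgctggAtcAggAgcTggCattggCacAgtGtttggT
Atp5g2: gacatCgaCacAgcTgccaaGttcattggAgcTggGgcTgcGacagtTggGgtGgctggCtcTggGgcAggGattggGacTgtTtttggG
Atp5g3: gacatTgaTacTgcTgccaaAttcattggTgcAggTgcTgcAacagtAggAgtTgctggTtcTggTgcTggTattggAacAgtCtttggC
The longest stretch shared by transcripts of Atp5g1 and Atp5g2 was 21 bases, against 11 bases for Atp5g1 and Atp5g3 and 12 bases for Atp5g2 and Atp5g3. Other near-identical copies in the genome were not examined.

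The 250 bases before the RefSeq start of each gene (GRCm38.p6, minus strand) lie at chr11:96075632-96075881 for Atp5g1, chr15:102671048-102671297 for Atp5g2 and chr2:73911327-73911576 for Atp5g3. They are printed because these genes, which share a product, differed in their course over the stages. Capitals mark matches on either strand to the letters GCATGCGC (a core of the NRF1 site), CCGGAAG (ETS factors), AAGATGGC (YY1) or GGGCGG (the GC box).
Atp5g1: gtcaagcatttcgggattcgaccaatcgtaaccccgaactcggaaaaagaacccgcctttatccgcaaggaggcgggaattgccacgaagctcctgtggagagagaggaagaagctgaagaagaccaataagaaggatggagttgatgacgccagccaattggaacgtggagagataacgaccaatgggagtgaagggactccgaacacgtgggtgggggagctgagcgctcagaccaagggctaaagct
Atp5g2: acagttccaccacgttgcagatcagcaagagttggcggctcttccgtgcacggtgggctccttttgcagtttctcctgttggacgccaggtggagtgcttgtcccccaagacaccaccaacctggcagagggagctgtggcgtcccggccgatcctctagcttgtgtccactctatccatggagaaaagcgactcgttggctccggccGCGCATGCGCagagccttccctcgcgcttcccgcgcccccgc
Atp5g3: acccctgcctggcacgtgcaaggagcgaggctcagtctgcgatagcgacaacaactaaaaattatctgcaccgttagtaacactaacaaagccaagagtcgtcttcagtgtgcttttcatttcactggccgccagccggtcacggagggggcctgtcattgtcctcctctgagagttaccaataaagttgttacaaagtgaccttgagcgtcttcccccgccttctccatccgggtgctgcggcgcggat
Among these 3 windows, only that of Atp5g2 held a match: the NRF1 letters on both strands, in overlapping matches that begin 42 and 40 bases before the start. Of the 86 genes, 67 had a RefSeq promoter under the same symbol, and 8 of these (11.9%) held the NRF1 letters, against 2.56% of 27025 symbols. They were Atp5g2, Atp5k, Atp5l, Cox6a1, Ndufa6, Ndufa8, Ndufa11 and Sdhb. The ETS letters were in 12 of the 67 (17.9%) against 7.83% of symbols, the YY1 letters in 1 (1.49%) against 1.83%, and the GC box in 24 (35.8%) against 35.4%. A match describes the letters of the window and is not a bound site.

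Markers of the labelled stages were present. Mki67, a gene of dividing cells, was detected (FPKM of at least 1) in 10 of 11 Progenitors, 4 of 9 Precursors and 0 cells of the other stages. Omp, the olfactory marker protein, was detected in 13 of 13 Late Immature and 25 of 25 Mature Neurons. It was also detected in 2 of 11 Progenitors, 3 of 9 Precursors and 21 of 27 Early Immature Neurons. Not every marker kept to its stage. Kit was detected in 4 of 11 Progenitors, and Neurog1, a Precursor marker, in 5 of 11 Progenitors and 4 of 9 Precursors. Gap43, an immature marker, was detected in 25 of 27 Early but 8 of 13 Late Immature Neurons. Markers of other cells were present too. S100a9, a neutrophil gene, stood at 174.1 to 351.8 FPKM in 8 of the 11 Progenitors and in Precursor D179. The summed level of 5 neutrophil genes ranged from 0 to 771 in Progenitors and from 0 to 400.4 in Precursors. It reached 241 in Late Immature Neurons, where only Lyz2 of the 5 was detected, in 2 of 13. The sustentacular genes Cbr2 and Cyp2g1 both reached 100 FPKM in D244 (Early Immature), D230 (Late Immature), D329 and D254 (Mature). Together 5 sustentacular genes summed to medians of 29.3 in Progenitors, 1.61 in Precursors and 1.93 in Early Immature Neurons. Their median sum was 15.7 in Late Immature and 309.9 in Mature Neurons. In Mature Neurons Cbr2 had a median of 210 FPKM and reached 100 FPKM in 14 of 25. Medians there were 1.14 FPKM for Cyp2g1, 0.353 for Sec14l3 and 0 for Cyp1a2 and Ermn. The 13 marked cells are those with S100a9 at 100 FPKM or more, or with both Cbr2 and Cyp2g1 at that level. Cells with high Cbr2 alone were kept. Krt5, Krt14 and Trp63, which define horizontal basal cells, were at a median of 0 in every stage. The part of these other markers in the results was not tested, and values without these 13 cells, or within cells D316 to D434, a run of 37 cell numbers that holds all 5 stages, are given beside the results they changed most. Both selections hold the same 3 Progenitors, and the run holds 4 Mature Neurons. Sequencing depth, read from the step between the lowest FPKM values, was 0.604 to 10.7 fragments per FPKM and kilobase over the 93 libraries, with a median of 5.85.

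The group was broadly and strongly expressed. Of the 86 genes, 82 were detected in at least 1 cell and 18 in all 85 cells, and the median gene was detected in 92.9% of cells. Ndufa4, a small subunit named for complex I and now placed with complex IV, had the highest median over all cells at 764 FPKM. By its symbol it is counted in complex I throughout, and not in complex IV. Cox4i1, a large nuclear subunit of cytochrome c oxidase, led complex IV at 708 FPKM and Atp5g3 led complex V at 634 FPKM. Uqcrh, the hinge protein of complex III, led its complex at 483 FPKM, and Sdhb, the iron-sulfur subunit of succinate dehydrogenase, led complex II at 146 FPKM. Cox6a2, Cox7b2, Cox8c and Ndufa4l2 were listed at 0 in every cell. The rule also took in Atp5l-ps1, Atp5s and Atp5sl, which are not core subunits and were detected in 16, 16 and 30 cells.

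Summed over the 86 genes, expression was higher in the Late Immature and Mature stages than in the first 3 stages. The lowest, median and highest cell stood at 8778, 12339.5 and 17302 summed FPKM in Progenitors and at 9714, 11193 and 13918 in Precursors. Early Immature Neurons stood at 9458, 13376 and 28118. Late Immature Neurons stood at 16374, 21645 and 29190.2, and Mature Neurons at 13242, 20966 and 62065. All 13 Late Immature Neurons and 24 of 25 Mature Neurons lay above the highest Precursor, and 11 and 21 of them lay above the highest Progenitor. The Early Immature stage overlapped both, since 1 Late Immature and 3 Mature Neurons lay above its highest cell. The Late Immature median was 1.62 times the Early Immature one, 1.66 times without the 13 cells and 1.64 times within D316 to D434.

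**Figure D1:**
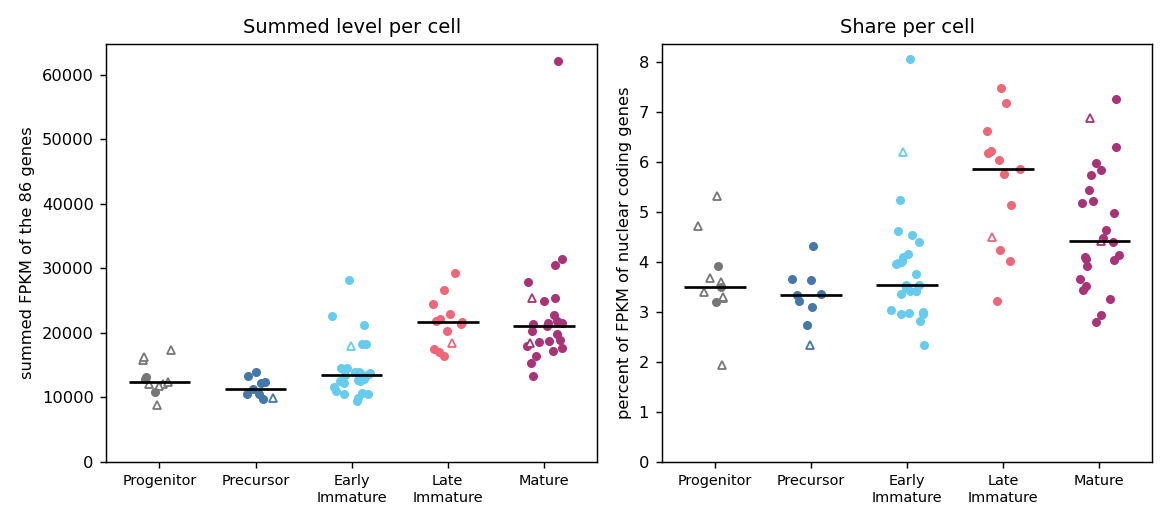
Each point is 1 of 85 cells by stage, with summed FPKM of the 86 genes on the left and their percentage of the FPKM of nuclear coding genes on the right; lines are medians and open triangles are the 13 cells with neutrophil or sustentacular markers. The Late Immature median (21645 summed FPKM, 5.87%) is the highest in both panels, while the Mature median is close to it on the left (20966) and lower on the right (4.42%).

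The rank of the Mature stage depended on the scale and on the cells used. As a share of the FPKM of nuclear coding genes, the medians were 3.51% in Progenitors, 3.34% in Precursors, 3.54% in Early Immature, 5.87% in Late Immature and 4.42% in Mature Neurons. The Mature median was 1.70 times the Progenitor one in summed FPKM, 1.26 times as a share of nuclear coding genes, and 0.932 times as a share of all genes outside the mitochondrial genome. These ratios were 1.71, 1.56 and 1.69 within D316 to D434, and without the marked cells the last was 0.946. The scale of all genes outside the mitochondrial genome also counts genes that are not protein coding or have no transcript of 300 bases. Its sum exceeded that of nuclear coding genes unevenly, at 1736500 against 404133 FPKM in Mature Neuron D274 and 371319 against 339673 FPKM in Progenitor D337. The 13 protein genes of the mitochondrial genome, which supply the other subunits, summed to a median of 7.06 times the nuclear sum in Progenitors, 5.11 times in Late Immature and 15.8 times in Mature Neurons. The order turned within D316 to D434, with 9.04 times in Progenitors, 4.45 in Late Immature and 5.52 in Mature Neurons. Over all cells mt-Atp8 had medians of 14172, 15735 and 78417 FPKM in Progenitors, Late Immature and Mature Neurons. Those of mt-Nd1 were 5905, 7018 and 12291 FPKM. No minimum length was set for these 13 genes, and the part of mt-Atp8 in the ratios was not tested.

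Complexes I, IV and V made up most of the group's sum in every stage. Complex I made up a median of 31.3% of the group's sum in Progenitors and 36.3% in Mature Neurons, and complex IV 23.8% and 20.2%. Complex V stood at 29.8% and 28%, complex III at 12% and 11.6%, and complex II at 2.3% and 2.55%. Within D316 to D434, complex IV stood at 22.1% and 22.1%, complex I at 23.5% and 33.4% and complex V at 38.4% and 31.2%. Cells overlapped widely in these parts: complex V ranged from 21.3% to 38.8% among Progenitors and from 19.1% to 46.2% among Mature Neurons. Across the 85 cells the log2 shares of complexes I and IV had a Pearson r of 0.63 and a Spearman rho of 0.61, and those of complexes I and V an r and a rho of 0.59. Within single stages r ranged from 0.61 to 0.75 for complexes I and IV, and from 0.10 (Precursors, rho -0.20) to 0.63 (Mature Neurons) for complexes I and V. These points share library and depth, and the number of these genes detected followed the number of all genes detected (r = 0.63, n = 85).

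To compare stages gene by gene, the mean of log2(FPKM + 1) over the cells of a stage was subtracted from that of the next stage, and a gene was included if at least 50% of cells in the earlier or the later stage reached an FPKM of 1. A gene that entered through the stage in which it was high had to differ. Of the 86 genes, 74 entered all 5 comparisons and 9 entered none (Ndufa4l2, Cox4i2, Cox6a2, Cox6b2, Cox7a1, Cox7b2, Cox8c, Atp5l-ps1 and Atp5s). A gene is counted as higher or lower at a difference of at least 1 log2 unit, or 2-fold. Since these genes stood above most others in level, they are also set beside the genes at or above their own lower quartile of mean level, a comparison added after the data were seen. This second set, called genes of like level, has no upper limit of level and includes genes of the group itself. Other abundant families, such as the cytoplasmic ribosome, were not removed from it.

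From Progenitor to Precursor the group showed no common direction. Of 76 genes compared, 13 were higher and 13 lower, against 20.1% and 21.6% of all genes, and the median difference was -0.14 against -0.03 over all genes. The median was 0.03 without Progenitor D184. Ndufs5, an accessory subunit of complex I, had the highest difference: it stood at 0, 1.86 and 142 FPKM in Progenitors (lowest, median and highest, the order used throughout) and at 1.68, 79.3 and 452 FPKM in Precursors, a difference of 2.55. Ndufa2, another accessory subunit, had the lowest at -2.88, with 83.2, 186 and 536 FPKM against 0.617, 35.8 and 148 FPKM. Of the Precursors, 6 of 9 lay below the lowest Progenitor for Ndufa2, while the stages overlapped for Ndufs5. Without the 13 marked cells, 20 genes were higher and 23 lower, against 19.8% and 34.8% of all genes.

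From Precursor to Early Immature Neuron the group again divided evenly. Of 74 genes, 11 were higher and 11 lower, against 22.0% and 28.0% of all genes. The median was 0.07 against -0.26, and it was -0.10 without Precursor D398. Ndufb3, an accessory subunit of complex I, had the highest difference at 3.29, from 0.215, 1.51 and 215.1 FPKM to 0.477, 106 and 594 FPKM, and 25 of 27 Early Immature Neurons lay above the Precursor median. Ndufa8, which holds disulfide bonds on the intermembrane side of complex I, had the lowest at -2.18 (-1.38 within D316 to D434), from 2.37, 127 and 599.9 FPKM to 0, 57.7 and 517 FPKM. Atp5g1 stood at -1.71, with 13.5, 161 and 389 FPKM against 0.0627, 21.7 and 631 FPKM.

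From Early to Late Immature Neuron the group's median lay above that of all genes. Of 76 genes, 33 were higher by 2-fold and 1 lower, against 32.5% and 16.0% of all genes, and 64 stood above 0, against 60.7% of all genes. The median was 0.82 against 0.41 over all genes, and against 0.10 over 630 genes of like level, of which 28.4% were higher and 20.6% lower. Cytoplasmic ribosome genes, not removed from that set, had a median of -1.04, with 2 of 97 higher and 53 lower. Complex I had the highest median at 1.18, with 20 of 37 genes higher, followed by complex II at 1.06 (2 of 4), complex III at 0.78 (3 of 8), complex V at 0.76 (4 of 16) and complex IV at 0.51 (4 of 11). Of the 4 genes of complex II, Sdhd entered this step only through the Late Immature stage. Uqcr11, a small subunit of complex III, was the lower gene at -1.77, with 0.743, 88.4 and 312 FPKM against 0, 53.4 and 212.7 FPKM. Within D316 to D434 the median was 1.49 and 0 genes were lower, against 14.2% of all genes, with Uqcr11 at 0.15. By medians over cells in place of means, 35.5% of the group and 41.7% of all genes were higher, and 2.63% and 22.8% lower.

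**Figure D2:**
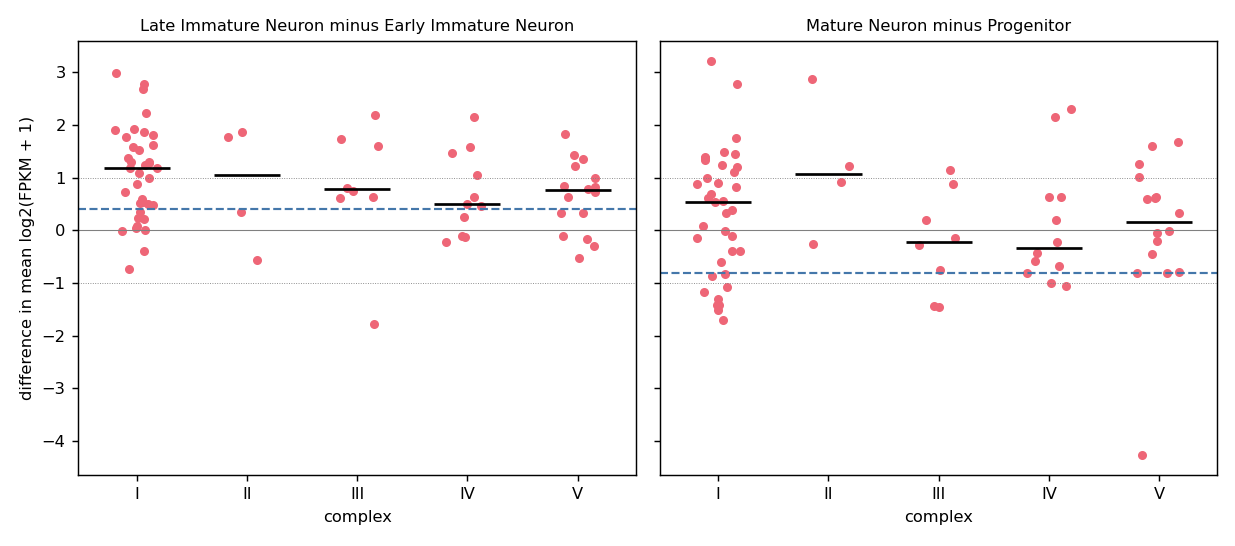
Each point is 1 gene, with its difference of mean log2(FPKM + 1) on the vertical axis by complex; the left panel is Late minus Early Immature Neuron and the right panel Mature Neuron minus Progenitor. Black lines are complex medians, the dashed blue line the median of all genes compared and dotted lines 1 log2 unit either way. On the left the complex I median is 1.18 against 0.41 for all genes, and on the right Atp5g2 lies apart at -4.27.

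From Late Immature to Mature Neuron the group's median was close to that of all genes and below that of genes of like level. Of 76 genes, 0 were higher and 23 lower, against 4.54% and 32.7% of all genes. The median was -0.56 against -0.58 over all genes and -0.16 over 619 genes of like level, of which 5.33% were higher and 16.3% lower. By medians over cells it was -0.36 against -1.03 over all genes, and within D316 to D434 -0.29 against 0.00037. Lower genes numbered 13 of 37 in complex I, 4 of 8 in complex III and 4 of 11 in complex IV. They numbered 2 of 16 in complex V and 0 of 4 in complex II, against 32.7% of all genes. Ndufs4, a complex I subunit needed for its assembly and stability, had the lowest difference at -2.74, from 2.14, 122 and 397 FPKM to 0, 2.55 and 270.2 FPKM, and 12 of 25 Mature Neurons lay below the lowest Late Immature Neuron. Cox5a, a matrix-side subunit of complex IV, had 2.14 from Early to Late and -1.96 from Late to Mature. Each library was also rescaled to the sum of its genes outside the mitochondrial genome, a sum that includes noncoding and short genes. This moved the median of all genes to -1.16 and that of the group to -1.24. On that scale 48 of 76 genes were lower, 63.2% of the group against 56.7% of all genes.

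Between the ends of the path, Progenitor to Mature Neuron, the group's median lay above 0 and that of all genes below 0. Of 77 genes, 20 were higher and 11 lower, against 25.2% and 46.3% of all genes. The median was 0.21 against -0.81 over all genes, but 0.26 over 597 genes of like level, of which 38.7% were higher and 27.5% lower, against 26.0% and 14.3% of the group. The median was -0.51 after rescaling to the genes outside the mitochondrial genome and -0.13 after rescaling to nuclear coding genes, so its sign depends on the scale; it stood 1.02 above that of all genes as deposited and 0.94 above after the first rescaling. Complex II had the highest median at 1.07 and complex I stood at 0.54, complex V at 0.15, complex III at -0.22 and complex IV at -0.33. Of the 4 genes of complex II, Sdhd entered only through the Mature stage.

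Over the 74 genes compared throughout, the Late Immature stage had the highest mean for 39, against 27.7% of 2188 genes compared throughout. The Mature stage was highest for 14 (11.4% of all), Progenitors for 11 (22.8%), Precursors for 6 (24.0%) and Early Immature Neurons for 4 (14.1%). By complex, the Late Immature stage was highest for 20 of 37 genes of complex I, 2 of 3 of complex II, 5 of 8 of complex III, 6 of 11 of complex IV and 6 of 15 of complex V.

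**Figure D3:**
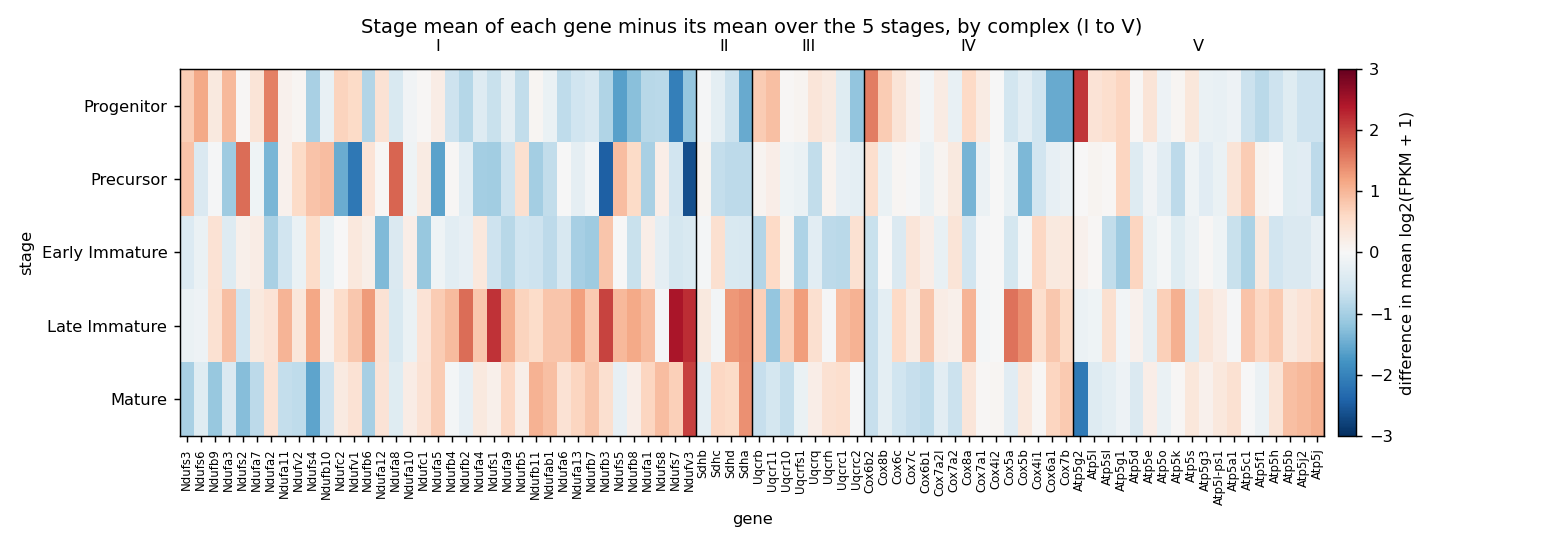
Heat map of the 82 detected genes by complex, with the stage mean of log2(FPKM + 1) minus the gene's mean over the 5 stages in colour; rows are the 5 stages. The Late Immature row is the highest for 39 of the 74 genes compared throughout.

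Complex I takes electrons from NADH, and from Progenitor to Mature 11 of its 37 genes compared were higher and 7 lower, against 25.2% and 46.3% of all genes. Ndufv3 and Ndufs7 had its highest differences. Ndufv3, a small subunit of the NADH-binding module (chr17:31520115-31531321 on mm10), stood at 4.97, 54.1 and 375 FPKM in Progenitors, 0.525, 12.6 and 173.6 FPKM in Precursors and 4.68, 104 and 556 FPKM in Early Immature Neurons. It stood at 89.8, 576 and 1271 FPKM in Late Immature and 112, 483 and 2651 FPKM in Mature Neurons. All 25 Mature Neurons lay above the Progenitor median and 14 above the highest Progenitor, with a difference of 3.21 from Progenitor to Mature and 2.68 from Early to Late. Ndufs7, which carries the last iron-sulfur cluster before ubiquinone (chr10:80249121-80256794), stood at 0, 2.88 and 377 FPKM in Progenitors, 0, 39.6 and 1056 FPKM in Early Immature, 62.8, 200.4 and 616 FPKM in Late Immature and 0, 189.5 and 1153 FPKM in Mature Neurons. All 13 Late Immature Neurons lay above the Early median in their first library, but the second libraries of D230 and D233 gave 7.54 and 2.27 FPKM, below it. The difference was 2.98. Among Mature Neurons the values spread, with 7 above and 11 below all Late Immature Neurons. From Progenitor to Mature the Ndufs7 difference was 2.77, and 7.92 within D316 to D434, where Progenitors number 3 and Mature Neurons 4. Ndufs7 was at least 10-fold lower in the second library of 6 of the 8 cells with a repeat library.

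Other subunits of complex I differed in direction. Ndufs8, an iron-sulfur subunit, had a difference of 1.75 from Progenitor to Mature, with medians of 0.915 and 13.2 FPKM, and the highest of the group from Late to Mature at 0.96. Without the marked cells these were 0.80 and 0.44. Ndufs8 entered the comparison of Progenitors with Mature Neurons only through the Mature stage. Ndufs3, a core subunit of the arm, had -1.70, from 2.51, 119.6 and 356 FPKM to 0, 10.4 and 980.4 FPKM, but -0.17 within D316 to D434 and -0.95 without the marked cells. Ndufs6, an accessory subunit, had -1.51, with 7 of 25 Mature Neurons below the lowest Progenitor. Ndufb9, a membrane-arm subunit, had -1.43, but 2.86 within D316 to D434 and 0.91 without the marked cells, so its direction rests on which Progenitors are used. Ndufb3 had 1.38, and -1.07 without the marked cells. Ndufa4, counted in complex I by its symbol, was by contrast detected in every cell. It stood at 83.1, 508 and 1474 FPKM in Progenitors and 21.5, 851 and 6960.1 FPKM in Mature Neurons, a difference of 0.68. Ndufa10 had the smallest range of stage means among the genes compared throughout, 0.42, but its difference from Progenitor to Mature was 3.27 within D316 to D434.

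**Figure D4:**
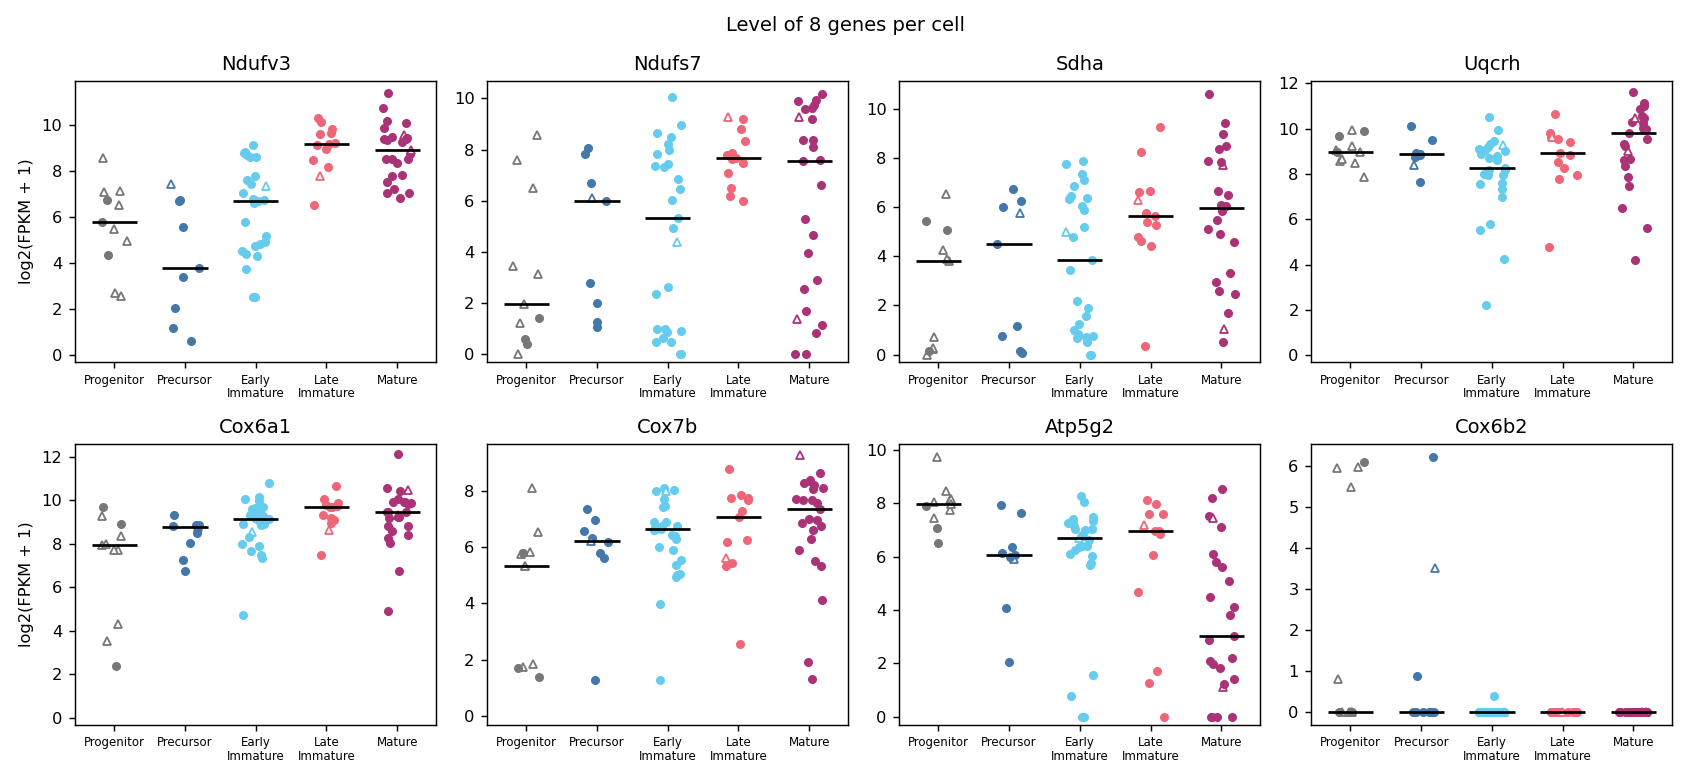
Each point is 1 cell, with log2(FPKM + 1) on the vertical axis by stage, for Ndufv3, Ndufs7, Sdha, Uqcrh, Cox6a1, Cox7b, Atp5g2 and Cox6b2; lines are medians and open triangles the 13 cells with neutrophil or sustentacular markers. Ndufv3 lies above its Progenitor median in all 25 Mature Neurons, Atp5g2 lies below its lowest Progenitor in 20 of 25, and Cox6b2 is detected (FPKM of at least 1) in 6 cells, all of the first 2 stages.

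Complex II, succinate dehydrogenase, links the citrate cycle to the chain. Sdha, its flavin-bearing catalytic subunit (chr13:74322254-74350280), stood at 0, 13 and 90.9 FPKM in Progenitors, 0.0381, 21.4 and 104 FPKM in Precursors and 0, 13.4 and 231.7 FPKM in Early Immature Neurons. It stood at 0.261, 48.1 and 617 FPKM in Late Immature and 0.439, 61.8 and 1552 FPKM in Mature Neurons, a difference of 2.88 from the first to the last stage, with 18 of 25 Mature Neurons above the Progenitor median. Sdhb went from 2.85, 199.9 and 292 FPKM to 1.77, 109 and 2058 FPKM (-0.26, and -1.15 without the marked cells). The membrane anchors Sdhc and Sdhd had 0.91 and 1.22, or 1.43 and 2.55 without the marked cells. Sdhd was detected in 4 of 11 Progenitors, 4 of 9 Precursors, 12 of 27 Early Immature, 10 of 13 Late Immature and 19 of 25 Mature Neurons.

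Complex III passes electrons from ubiquinol to cytochrome c, and from Progenitor to Mature 1 of its 8 genes was higher and 2 lower, against 25.2% and 46.3% of all genes. The core proteins Uqcrc2 and Uqcrc1 stood at 1.15 and 0.88, the second short of 2-fold and at 1.83 within D316 to D434 but -0.25 without the marked cells. Uqcrc2 stood at 0, 57.8 and 142 FPKM in Progenitors and 0, 78.6 and 1242 FPKM in Mature Neurons, with 11 of 25 above the highest Progenitor. The small subunits Uqcrb and Uqcr11 were lower at -1.46 and -1.43, and Uqcr10 stood at -0.75 (2.04 within D316 to D434). Uqcrb, which lies at the ubiquinone pocket, stood at 7, 174.97 and 645 FPKM and 0, 25 and 973 FPKM; within D316 to D434 its difference was 0.55. Uqcrh stood at 234.3, 499.7 and 989 FPKM in Progenitors and 17.6, 902 and 3183 FPKM in Mature Neurons, a difference of 0.20 that was -0.31 within D316 to D434.

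Complex IV, cytochrome c oxidase, reduces oxygen. Cox6a1, a regulatory subunit (chr5:115345642-115348981), stood at 4.3, 246 and 829 FPKM in Progenitors, 105, 429.7 and 645 FPKM in Precursors and 25.6, 559 and 1745 FPKM in Early Immature Neurons. It stood at 181, 821 and 1604 FPKM in Late Immature and 29.2, 699 and 4404 FPKM in Mature Neurons, a difference of 2.16 from first to last, with 23 of 25 Mature Neurons above the Progenitor median; within D316 to D434 it was 1.35. Cox7b, a small membrane subunit (chrX:106015700-106022450), had medians of 39.5, 72.9, 98.4, 134 and 162 FPKM in the order of the stages, a difference of 2.30, with 6 of 25 Mature Neurons above the highest Progenitor; without the marked cells it was 3.66. Cox4i1 stood at 9.61, 513 and 633 FPKM and 5.95, 901 and 2163 FPKM (0.64, and 1.38 within D316 to D434). Cox6c and Cox7c, small membrane subunits, stood at -0.99 and -0.81, both short of 2-fold, and at 0.51 and 2.37 within D316 to D434.

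Where complex IV has alternative genes, 1 gene carried nearly all of the signal in most sets. Cox4i1 held at least 99.7% of the Cox4i pair in every cell, and Cox4i2 was detected in 1 Mature Neuron at 2.73 FPKM. Cox6b2, known from testis, was an exception in some cells. It was detected in Progenitors D184, D170, D174 and D330 at 61.5, 60.2, 43.5 and 67.2 FPKM. It was also detected in Precursors D383 and D179, at 73.7 and 10.3 FPKM. In D383 it made up 59.5% of the Cox6b pair. This is 36.4% of Progenitors (exact Clopper-Pearson 95% interval 10.9 to 69.2%) and 22.2% of Precursors (2.81 to 60.0%), against 0 of 27, 0 of 13 and 0 of 25 cells of the later stages. The zero count in Mature Neurons allows up to 12% of cells with a value of at least 1 FPKM, and does not limit the share that expresses the gene; the intervals and this limit cover counting error only. Of these 6 cells, D184, D170, D174 and D179 held neutrophil markers and D330 and D383 did not. Cox8b, used in muscle and brown fat, was detected at 1.27 to 8.96 FPKM in 6 Progenitors, all with neutrophil markers, and at 293.9 FPKM in D244, the Early Immature cell with sustentacular markers, where Cox8a stood at 729 FPKM. Cox7a2 and Cox7a2l shared their set, with Cox7a2 at a median of 47.9% in Progenitors and 41.4% in Mature Neurons, and from 0.283% to 99.2% in single Mature Neurons. The order turned within D316 to D434 (20.1% and 73.1%) and without the marked cells (20.1% and 41.4%).

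Complex V makes the ATP, and its c subunit genes differed in course. Atp5g2 (chr15:102663014-102667749) stood at 90.1, 251.12 and 862 FPKM in Progenitors, 3.11, 66.2 and 243.7 FPKM in Precursors and 0, 103 and 309 FPKM in Early Immature Neurons. It stood at 0, 124 and 279 FPKM in Late Immature and 0, 7.23 and 372 FPKM in Mature Neurons. The difference from Progenitor to Mature was -4.27, the lowest of the group, with steps of -2.14 into the Precursor stage and -1.95 into the Mature stage. Of the 25 Mature Neurons, 20 lay below the lowest Progenitor, and the difference ranged from -5.11 to -3.55 over the alternatives; it was -3.55 without the marked cells, which include 8 of the 11 Progenitors. The step into the Precursor stage was -1.38 without them. Atp5g3 (chr2:73908447-73911326), the main gene at every stage, stood at 19.9, 676 and 1037 FPKM in Progenitors and 8.8, 892 and 1817 FPKM in Mature Neurons (0.32, and -0.58 within D316 to D434). Atp5g1 (chr11:96068852-96075670) stood at 9.5, 176 and 377 FPKM and 0, 162 and 1286 FPKM (-0.79, and 0.20 within D316 to D434).

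Within a cell the share of each c subunit gene does not depend on the scale between libraries. Atp5g2 made up a median of 23.9% of the 3 genes in Progenitors, 9.21% in Precursors, 10.6% in Early Immature, 8.52% in Late Immature and 1.1% in Mature Neurons. Progenitors ranged from 10.7% to 94.8% and Mature Neurons from 0 to 27.4%, so the stages overlap in part. Atp5g3 made up 64.7%, 69.9%, 72.5%, 79.2% and 77.2% in the same order, and Atp5g1 16.5%, 21.7%, 2.86%, 15.6% and 17.7%. Within D316 to D434, Atp5g2 stood at 18.4% in Progenitors and 0.85% in Mature Neurons and Atp5g1 at 6.69% in Late Immature and 30.7% in Mature Neurons; without the marked cells Atp5g2 stood at 18.4% and 1.1%. Between repeat libraries of 8 cells, Atp5g1 was at least 10-fold lower in the second library of 5, and Atp5g2 and Atp5g3 in that of 1 each. The deposited Atp5g2 model is 1 transcript of 441 bases that begins 3298 bases inside the RefSeq start printed above. This limits shares between the genes, and whether use of other Atp5g2 starts or transcripts differed between stages was not tested.

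**Figure D5:**
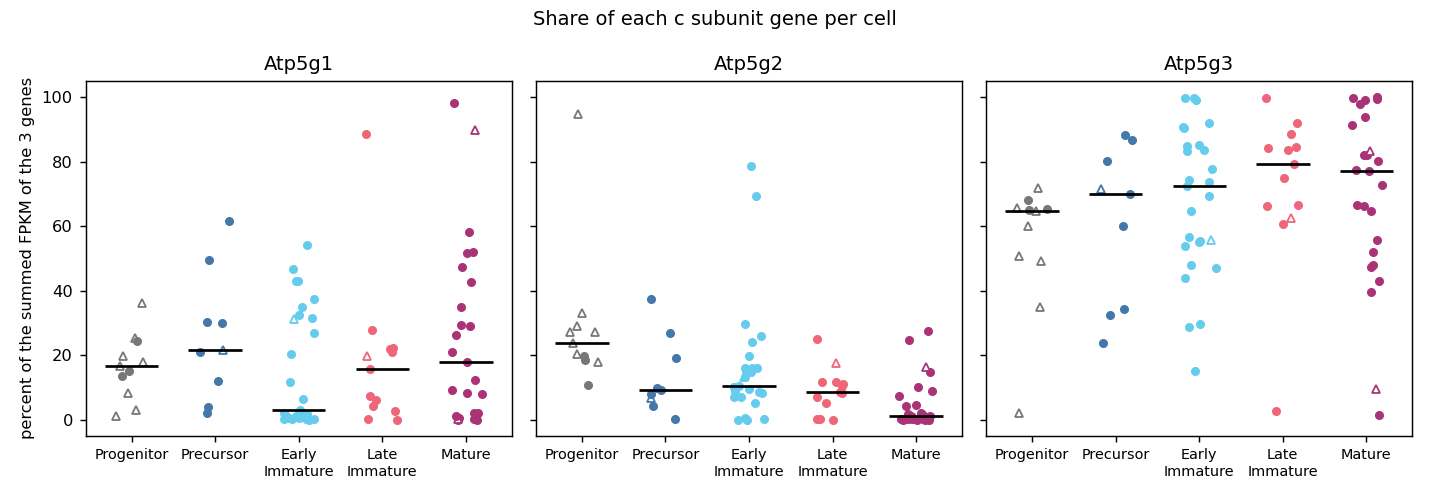
Each point is 1 cell, with the percentage of the summed FPKM of Atp5g1, Atp5g2 and Atp5g3 held by each gene on the vertical axis, by stage; lines are medians and open triangles the 13 cells with neutrophil or sustentacular markers. The Atp5g2 median is 23.9% in Progenitors and 1.1% in Mature Neurons, and Atp5g3 has the highest median in every stage.

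From Progenitor to Mature, 4 of 16 genes of complex V compared were higher and 1 (Atp5g2) lower, with 8 above 0 and 8 below, against 25.2% and 46.3% of all genes. Atp5j, coupling factor F6 of the stalk, stood at 8.04, 174.6 and 384 FPKM in Progenitors and 69.4, 458 and 1389.6 FPKM in Mature Neurons, a difference of 1.67, with 15 of 25 above the highest Progenitor; it was 0.38 within D316 to D434 and 0.65 without the marked cells. Atp5j2, a small membrane subunit, had 1.61. Atp5b, the catalytic beta subunit, stood at 45.9, 479 and 1136 FPKM and 17.4, 1091 and 4469 FPKM, a difference of 1.26, with 12 of 25 above the highest Progenitor; it was 0.40 without the marked cells. Atp5l, another membrane subunit, and Atp5sl stood at -0.81 each, and at 0.64 and -2.05 within D316 to D434. Atp5e, the epsilon subunit, and Atp5g3 had stage means within 0.70 of each other.

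Other genes of the pathway did not share 1 course. From Progenitor to Mature Neuron, 9 of 12 protein genes of the mitochondrial genome compared were higher and 0 lower (median 1.22), against 25.2% and 46.3% of all genes, from 0.83 for mt-Nd1 to 2.45 for mt-Atp8. Within D316 to D434, 0 of 13 were higher or lower (median 0.21), against 38.0% and 35.5% of all genes. After rescaling to the genes outside the mitochondrial genome 2 of 12 were higher (median 0.41), against 21.1% of all genes. Cycs, cytochrome c, stood at 1.65, with medians of 9.6 and 24.5 FPKM, and Cyc1, the cytochrome c1 of complex III, at -1.96, with 2.13, 113 and 435 FPKM against 0, 6.58 and 406.3 FPKM. Neither differed by 2-fold within D316 to D434. Of 39 assembly factors, 15 were compared, with 4 higher and 5 lower. Ndufaf4 of complex I had the highest difference at 3.03 and Uqcc2 of complex III the lowest at -3.22. Ndufaf4 was detected in 1 of 11 Progenitors and 15 of 25 Mature Neurons, and Uqcc2 in 10 of 11 and 11 of 25. Each entered only through the stage in which it was high and so had to differ. Within D316 to D434, 9 of 21 assembly factors were higher and 5 lower, against 38.0% and 35.5% of all genes. Atpif1, the inhibitor of ATP synthase, stood at 0.13. Of 11 regulators, 4 were compared. Ppargc1a, a coactivator of mitochondrial genes, had 2.38 and was detected in 0 of 11 Progenitors, 0 of 9 Precursors, 4 of 27 Early Immature, 7 of 13 Late Immature and 13 of 25 Mature Neurons. Ppargc1a entered only through the Mature stage. Nrf1 and Yy1, whose letters were searched in the promoters, stood at -0.72 and -1.64 and entered only through Progenitors.

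The citrate cycle, which feeds the chain, was compared over the same steps. From Early to Late Immature Neuron, 7 of 12 genes were higher and 0 lower (median 1.23), against 32.5% and 16.0% of all genes. From Late to Mature, 0 of 12 were higher and 7 lower (median -1.35), against 4.54% and 32.7%. For this step within D316 to D434, 1 was higher and 5 lower (median -0.11), against 25.2% and 27.6%. From Progenitor to Mature the citrate cycle had 1 higher (Ogdh, 1.05) and 1 lower (Idh3g, -1.45) of 10, against 25.2% and 46.3% of all genes. Ogdh entered only through the Mature stage. Within D316 to D434, 5 of 11 were higher and 0 lower, against 38.0% and 35.5%. The 6 carriers and porins had 4 higher and 1 lower from Early to Late and 2 and 2 from Progenitor to Mature, where Slc25a5, an ADP/ATP carrier, stood at 2.11 and Vdac3, a porin, at -1.95. Genes of the ribosomes had lower medians than the group. Of 55 mitochondrial ribosome genes compared, 2 were higher and 37 lower from Progenitor to Mature (median -1.58), and of 99 cytoplasmic ribosome genes 0 were higher and 84 lower (median -1.92). Of 64 mitochondrial ribosome genes compared within D316 to D434, 16 were higher and 33 lower, against 38.0% and 35.5% of all genes.

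Repeat libraries set the spread of a single value. Between the 2 libraries of each of 8 cells, the median absolute difference over the 86 genes was 0.81 to 2.2 log2 units, and it was smaller than the median difference to other cells of the stage in 5 cells and larger in 3. Ndufs7 stood at 332.1 FPKM in 1 library of Mature Neuron D243 and at 0.818 FPKM in the other, and Ndufv3 at 938 and 12.5 FPKM. Atp5g2 stood at 6.42 and 5.56 FPKM in the same cell, but at 144.6 and 4.59 FPKM in Late Immature Neuron D230, the 1 of 8 cells in which it was at least 10-fold lower in the second library. Single values thus differed widely between libraries of the same cell, and a low value in 1 cell is no sign that the cell lacks the gene.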

How the data were processed

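Polyadenylated RNA of single cells was sequenced, with 93 libraries of 85 cells in 5 stages. The deposited gene table holds FPKM, made by the authors. The submitters' processing notes name Cufflinks 2.2.1, TopHat2 2.0.14, cutadapt 1.2.1, Trim Galore, CASAVA 1.8.2 and the mm10 genome; how libraries were scaled is not given in the sources used here. Positions come from the deposited annotation (other values). A deposited table of receptors was not used here.

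The 32868 entries were taken once per symbol (32640 symbols, the highest FPKM of a symbol); 0 of the 86 genes had more than 1 entry. The first library of a cell was used. Stages were compared by the difference of mean log2(FPKM + 1) for genes at an FPKM of at least 1 in at least 50% of cells of either stage, with no test. The pseudocount of 1 understates differences of low genes. Intervals cover counting error alone, since PCR copies do not count separate molecules. The genes, lists and comparisons were chosen with earlier results of these data known. Named genes were, per complex, the highest median, up to 3 highest and 3 lowest differences from Progenitor to Mature Neuron, the extremes of each step, Sdh genes, alternative genes and the smallest ranges. Cox5a and the cells in which rare genes were detected were named after their values were seen. Alternatives were other scales (the one of nuclear coding genes, and scales combined with fewer cells, added after the data were seen), a pseudocount of 0.1, no filter, fewer cells, both libraries, medians and leaving out each cell. The code for differences was tested on simulated cells, built from genes well detected in most Early Immature Neurons and without missing values. That setting differs from these data and does not show how the code performs on genes missed in some cells. Python 3.11.15, pandas 2.3.3, numpy 2.4.6, scipy 1.17.1 and matplotlib 3.10.9 were used.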

Additional observations from a re-analysis of the deposited data

Results flagged for a closer look

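Of 55 sets of values checked in the 9 Precursors, the one stage small enough for this check, 13 held a cell whose gap to the next value exceeded Dixon's 95% critical share of the range. Chance flags about 1 in 20, and these values share cells. D398 had 25 genes of complex I detected, where the others had 31 to 35. Its log2(FPKM + 1) was 1.27 for Cox7b (next lowest 5.63), 3.63 for Atp5j (5.94) and 1.75 for Ndufa8 (5.97). D319 stood at 1.46 for Ndufb9 (5.78), 3.28 for Atp5j2 (6.03) and 3.0 for Atp5e (5.93). D383 summed to 5464 FPKM over complex V (next highest 4064) and stood at 0.17 for Uqcrc2 (5.05). D374 summed to 699 FPKM over complex II (next highest 346). D195 stood at 2.37 for Sdhb (6.27), D178 at 1.82 for Ndufs4 (5.21), and D179, the Precursor with neutrophil markers, at 0.96 for Cox8b, which was listed at 0 in the other 8 Precursors.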

How the results depend on the processing

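Under the alternatives, 142 values of stages stayed within their limits, 28 moved and 11 turned sign. Of 418 values of single genes from Progenitor to Mature, 8 moved and 4 turned sign. Some values could not change, so these counts overstate stability. Dropping the filter leaves a single gene's difference as it was, and Progenitors and Precursors have no repeat libraries. A single gene counted as turned only if its difference on the deposited scale was at least 1 log2 unit. It counted as moved only if it shifted by at least the standard deviation over cells, a wide limit. Smaller differences that changed sign, such as those of Cox7c and Uqcr10 within D316 to D434, were not counted as turned. The cause was not tested. From Progenitor to Precursor, 21 genes were lower in cells D316 to D434, against 37.2% of all genes. Without the marked cells 20 were higher and 23 lower, against 19.8% and 34.8%. By medians over cells 7 were higher, against 29.8%. From Precursor to Early Immature Neuron the median turned to -0.11 on the scale of genes outside the mitochondrial genome, -0.080 with a pseudocount of 0.1, -0.052 in D316 to D434, -0.0097 with both libraries and -0.10 on the scale of nuclear coding genes, an alternative added after the data were seen. From Early to Late, D316 to D434 gave a median of 1.49 and 0 lower genes, against 14.2% of all genes. Medians over cells gave 2 lower, against 22.8%. From Late to Mature, the scale of genes outside the mitochondrial genome gave -1.24 and 48 lower genes, against 56.7% of all genes. A pseudocount of 0.1 and medians over cells each gave 1 higher gene, against 5.89% and 6.62% of all genes. D316 to D434 gave 7 higher, against 25.2%. From Progenitor to Mature, the scale of genes outside the mitochondrial genome gave a median of -0.51. On it 6 genes were higher and 29 lower, against 21.1% and 58.4% of all genes. The scale of nuclear coding genes gave -0.13, with 13 higher and 22 lower, against 23.7% and 55.3%. Lower genes numbered 17 with a pseudocount of 0.1, against 54.5%, and 19 without the marked cells, against 53.4%. D316 to D434 gave 34 higher, against 38.0%. Single genes counted as turned from Progenitor to Mature were Ndufb9 (2.86 in D316 to D434, 0.91 without marked cells), Uqcrb (0.55 in D316 to D434) and Ndufb3 (-1.07 without marked cells). The Mature to Late ratio of summed levels was 0.560, and the Mature to Progenitor ratio 0.932, as shares of genes outside the mitochondrial genome, and the latter 1.26 as a share of nuclear coding genes. Without the marked cells, an alternative combined with these scales after the data were seen, the ratios were 0.556 and 0.946 as shares of genes outside the mitochondrial genome, and 0.739 and 1.26 as shares of nuclear coding genes. At 10 FPKM the median gene was detected in 75.9% of cells.

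Leaving out each cell gave medians of -0.28 to 0.031 from Progenitor to Precursor (the highest without D184), -0.10 to 0.14 from Precursor to Early (the lowest without D398, which also gave the fewest higher genes), 0.73 to 1.06 from Early to Late, -0.74 to -0.44 from Late to Mature and 0.05 to 0.41 from Progenitor to Mature. Higher genes numbered 10 to 16, 7 to 12, 31 to 39, 0 to 1 (D205) and 18 to 24 in that order, and lower genes 11 to 16, 9 to 14, 1 to 2 (D199), 18 to 26 and 9 to 15. No paired analysis was possible because no label pairs cells across stages. The sum of several entries was not run, since no gene of the group has more than 1. Depth limits single values, though its part beside other limits was not tested, and a gene at 0 in 1 cell may be present.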
